A study of Mus musculus with 9 samples.

Results

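Alternative splicing lets 1 gene give several messenger RNAs, and a small set of RNA-binding proteins decides in many tissues which exons are kept. The 9 regulators described here are the epithelial splicing regulatory proteins Esrp1 and Esrp2, the Fox-family protein Rbfox2, the muscleblind proteins Mbnl1, Mbnl2 and Mbnl3, and the polypyrimidine tract-binding proteins Ptbp1, Ptbp2 and Ptbp3. They were chosen by symbol, and all 9 of them were found among the 35896 genes of the deposited tables and passed the filter on low counts, which left 14648 genes. ESRP proteins mark epithelial cells and favour epithelial exons, and their loss accompanies the switch from epithelial to mesenchymal forms of many messages. RBFOX proteins keep or drop exons according to the side on which they bind. MBNL proteins promote the splicing patterns of differentiated tissue and hold back some exons of pluripotent cells. PTBP1 represses neural and muscle exons, its neural counterpart PTBP2 takes over in young neurons, and PTBP3 is a further relative with a broad pattern.

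Poly-A RNA came from E14, a single mouse embryonic stem cell line, in 3 groups of 3 libraries. Cells with LIF2i were held in self-renewal by the cytokine LIF together with the MEK inhibitor PD0325901 at 1 µM and the GSK3β inhibitor CHIR99021 at 1 µM. Withdrawn control cells spent 72 h without LIF2i. CK666 cells spent the same 72 h without LIF2i but with 80 µM CK666, an inhibitor of the Arp2/3 complex, which builds branched actin networks. CK666 was dissolved in DMSO, and it is not recorded whether control cells received solvent, so drug and solvent cannot be told apart. All groups grew on gelatin in serum, and the study calls the biological replicates paired.

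Libraries held 16894327 to 22550952 estimated counts. The 3 replicate 1 libraries stood apart, with 15690 to 17605 genes above 0 against 18166 to 18749 in replicates 2 and 3, so the regulators' called changes and the main exon differences are also given without them. The labelled cell type was checked against 9 markers of pluripotent stem cells, all of them detected in every group. Withdrawal lowered 7 of these and raised 1, Utf1, while Pou5f1 was not called (log2 fold change -0.24, SE 0.23, edgeR adjusted p 0.423).

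The sequences below are the alternative exons of these regulators whose use is described further on, because members of these families control their own and each other's exons. Ptbp2 holds an exon of 34 bases (GRCm38 chr3:119724612-119724645, minus strand, coding exon 10 of Ptbp2-201) whose skipping shifts the reading frame and marks the message for decay. Ptbp1 has the matching exon of 34 bases (chr10:79862014-79862047, plus strand, coding exon 10 of Ptbp1-216). Capitals mark the bases at which the pair differs, and 26 of 34 bases (76.5%) are the same.
Ptbp2 exon: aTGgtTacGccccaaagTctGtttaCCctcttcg
Ptbp1 exon: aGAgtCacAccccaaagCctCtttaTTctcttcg
Ptbp1 also has an in-frame coding exon of 78 bases (chr10:79860117-79860194, plus strand, exon 8 of Ptbp1-216), which separates the long from the short form of the protein; nothing is capitalised in it.
Ptbp1 in-frame exon: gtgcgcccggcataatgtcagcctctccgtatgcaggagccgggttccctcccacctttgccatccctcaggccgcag
Mbnl1 (chr3:60614683-60614736, plus strand, exon 5 of Mbnl1-216) and Mbnl2 (chr14:120395712-120395765, plus strand, exon 6 of Mbnl2-201) each hold an in-frame coding exon of 54 bases that is known to favour a nuclear protein and to be skipped under the control of MBNL proteins themselves. Capitals mark the bases at which these 2 differ, and 46 of 54 (85.2%) are the same.
Mbnl1 exon: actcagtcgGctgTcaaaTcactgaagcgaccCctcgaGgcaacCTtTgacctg
Mbnl2 exon: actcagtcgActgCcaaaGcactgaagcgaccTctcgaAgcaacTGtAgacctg
The exon of 63 bases of Enah (chr1:181911597-181911659, minus strand, coding exon 13 of Enah-202) is shown as a known target of ESRP proteins: it is the epithelial exon of the actin regulator Mena. It was picked for printing after its values were seen, and nothing is capitalised in it.
Enah exon: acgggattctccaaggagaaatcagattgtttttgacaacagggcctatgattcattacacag
All of these were read from the GENCODE M21 transcript sequences.

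By length-corrected level, given as TPM, which corrects counts for transcript length within a library, Ptbp1 was the most abundant of the 9 regulators in every group, at 512 ± 223 TPM with LIF2i, 517 ± 158 TPM after withdrawal and 452 ± 134 TPM with CK666 (mean ± SD, n = 3). With LIF2i, Ptbp3 followed at 64.2 ± 55.8 TPM and Rbfox2 at 63.6 ± 23.9 TPM, which do not differ beyond their spread. The place of Ptbp3 rested on replicate 1, at 129 TPM. In replicates 2 and 3 it was at 29.8 and 34.1 TPM, below Rbfox2 at 50.1 and 49.6 TPM. Ptbp2 stood at 19.5 ± 2.19 TPM, Mbnl2 at 14.2 ± 4.29, Mbnl1 at 7.45 ± 6.59, Esrp2 at 2.64 ± 1.91, Mbnl3 at 2.23 ± 1.15 and Esrp1 at 0.343 ± 0.143 TPM. In this order Ptbp2 and Mbnl2, Mbnl2 and Mbnl1, Mbnl1 and Esrp2, and Esrp2 and Mbnl3 lay within their spread of each other, while Esrp1 was lowest in all 3 libraries. After withdrawal Esrp1 reached 49.7 ± 11.0 TPM, about the level of Rbfox2 at 46.1 ± 18.2 TPM and of Ptbp2 at 40.9 ± 8.34 TPM. Ptbp3 then stood at 24.3 ± 7.45 TPM, Mbnl2 at 11.1 ± 2.41, Esrp2 at 8.23 ± 1.61, Mbnl3 at 4.01 ± 2.31 and Mbnl1 at 2.77 ± 1.42 TPM. With CK666, Rbfox2 stood at 47.8 ± 19.1 TPM, Ptbp2 at 27.3 ± 8.49, Ptbp3 at 25.0 ± 10.4, Esrp1 at 21.2 ± 10.1 and Mbnl2 at 19.9 ± 8.64 TPM. The plot of levels by library shows that replicate 1 was often the highest library of its group, as for Rbfox2 and Ptbp1 in all 3 groups.

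**Figure D1:**
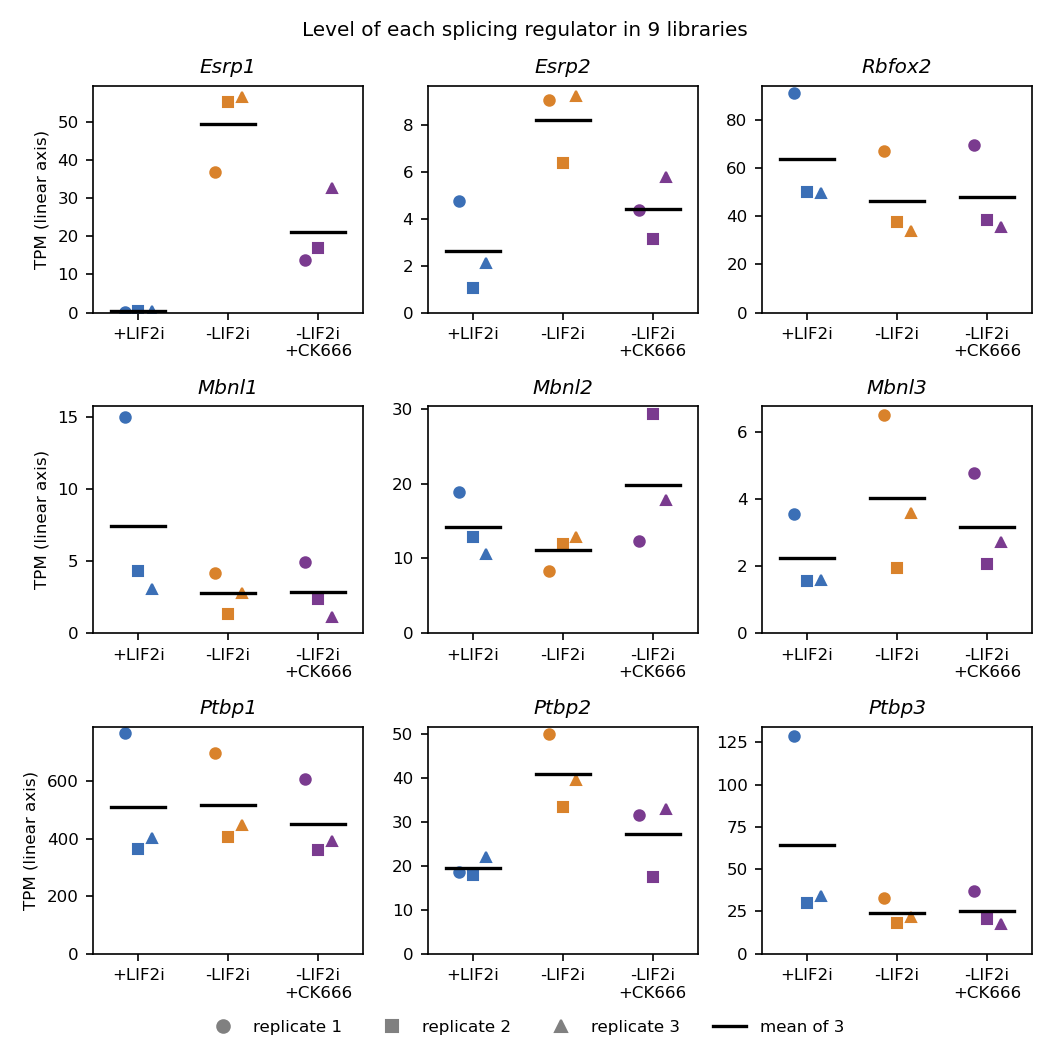
Level of each of the 9 regulators in TPM (linear axis from 0) in the 9 libraries, by group, with the shape giving the replicate number and the bar the mean of 3. Esrp1 sits at or below 0.451 TPM with LIF2i and at 37.0 to 56.7 TPM after withdrawal, and Ptbp3 has 1 library with LIF2i at 129 TPM.

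The comparison of withdrawn with self-renewing cells measured 72 h without LIF2i. Direct effects of removing LIF or either inhibitor cannot be told apart from exit from self-renewal. In this comparison Esrp1, Esrp2 and Ptbp2 rose, Rbfox2 and Ptbp3 fell, and Mbnl1, Mbnl2, Mbnl3 and Ptbp1 were not called. That is 5 of 9 regulators, by edgeR's quasi-likelihood test with the replicate number as a block and Benjamini-Hochberg adjustment over all genes, beside 40.7% of all genes tested (21.1% raised and 19.7% lowered), so the share of regulators that moved is near that of all genes. Their median log2 fold change was 0.10, beside 0.01 over all genes. In CPM the groups did not overlap for 5 of the 9, also beside 40.7% of all genes. Without the block 4 of the 9 were called, beside 24% of all genes. CPM, read counts relative to TMM-scaled library size, are given below for each library in replicate order. In bulk RNA, fewer cells of a type and less RNA per cell cannot be told apart.

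Esrp1 (chromosome 4, 11331933 to 11386783), which favours epithelial exons, was close to silent in self-renewing cells. It was at 0.393, 1.36 and 1.09 CPM with LIF2i, from 8, 26 and 18 estimated counts, and at 69.6, 129 and 144 CPM after withdrawal. The groups were far apart, with the lowest withdrawn library at 69.6 CPM. Esrp1 rose by 6.92 on the log2 scale (SE 0.25, edgeR adjusted p 1.05e-06), a 121-fold difference with the same direction in 3 of 3 pairs. It was called in 20 of 20 alternatives, at 5.22 to 7.31 on the log2 scale, and was 6.80 without the replicate 1 libraries.

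Esrp2 (chromosome 8, 106130319 to 106136974), its partner with overlapping targets, was at 9.39, 2.93 and 3.46 CPM with LIF2i and at 14.4, 11.1 and 15.1 CPM after withdrawal. The groups did not overlap, but replicate 1 with LIF2i was well above the other 2. Esrp2 rose by 1.49 on the log2 scale (SE 0.32, edgeR adjusted p 0.00513) and by 2.05 without the replicate 1 libraries. Its call was lost in 1 of 20 alternatives, without the replicate 3 libraries (edgeR adjusted p 0.0706). Esrp2 shares 7.79% of its exonic bases with 1810019D21Rik and Nfatc3 on the other strand.

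Within the ESRP family the makeup was turned over, as the plot of family makeup shows. Esrp1 made up 3.66%, 30.1% and 15.9% of the family's TPM with LIF2i and 80.3%, 89.7% and 86.0% after withdrawal. Summed over both genes the family went from 2.98 ± 1.77 to 57.9 ± 10.5 TPM (n = 3). No library of one group reached the share of any library of the other.

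Ptbp2 (chromosome 3, 119718742 to 119784466), the neural counterpart of Ptbp1, was at 15.7, 30.9 and 35.0 CPM with LIF2i and at 73.2, 58.8 and 68.5 CPM after withdrawal. Every withdrawn library was above every library with LIF2i. It rose by 1.32 on the log2 scale (SE 0.28, edgeR adjusted p 0.00537), was called in 20 of 20 alternatives, and rose by 0.97 without the replicate 1 libraries.

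Ptbp3 (chromosome 4, 59471868 to 59549364) was at 365, 149 and 157 CPM with LIF2i and at 104, 83.0 and 85.9 CPM after withdrawal. Replicate 1 with LIF2i was far above its fellow libraries. The groups did not overlap in CPM, although in TPM they did. Ptbp3 fell by 1.18 on the log2 scale (SE 0.18, edgeR adjusted p 0.000953) and by 0.83 without the replicate 1 libraries, and it was called in 20 of 20 alternatives.

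Ptbp1 (chromosome 10, 79854427 to 79864771), the general repressor of the family, was at 907, 646 and 685 CPM with LIF2i and at 1029, 659 and 729 CPM after withdrawal. The groups overlapped, and each replicate 1 library was the highest of its group. The log2 fold change was 0.10 (95% interval -0.15 to 0.35, edgeR adjusted p 0.506). Genes on the other strand, among them Plppr3, overlap 20.7% of the exonic bases of Ptbp1, and the counting is not stated to use strand, so reads there cannot be assigned with certainty. Its share of the family's TPM was 86.7 ± 2.42% with LIF2i and 88.7 ± 0.708% after withdrawal, while Ptbp2 went from 3.73% to 7.15% and Ptbp3 from 9.57% to 4.16% (means of 3).

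Rbfox2 (chromosome 15, 77078990 to 77307004), the Fox protein of stem cells and of mesenchymal splicing, was at 155, 166 and 160 CPM with LIF2i and at 140, 108 and 101 CPM after withdrawal. The withdrawn libraries were all lower in CPM, although in TPM the groups overlapped. Rbfox2 fell by 0.49 on the log2 scale (SE 0.14, edgeR adjusted p 0.0239) and by 0.62 without the replicate 1 libraries. This call was the least stable of the 5. It was lost without the block (adjusted p 0.144) and in 7 fits that left out libraries: replicate 2 or 3 with LIF2i, any 1 withdrawn control library, or all libraries of replicate 2 or of replicate 3. Over its 20 alternatives it passed in 12, at -0.65 to -0.37 with an adjusted p of 0.000752 to 0.215.

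The muscleblind genes did not pass the test, although Mbnl1 passed in 2 of 20 alternatives, by limma voom (-0.59, adjusted p 0.0483) and by edgeR with the length offset (-1.18, adjusted p 0.0494). Mbnl1 (chromosome 3, 60472830 to 60629750) was at 12.3, 9.41 and 8.26 CPM with LIF2i and at 9.60, 5.19 and 5.29 CPM after withdrawal, lower in 3 of 3 pairs with overlapping groups (log2 fold change -0.61, SE 0.24, edgeR adjusted p 0.0761). Mbnl2 (chromosome 14, 120275669 to 120431697) was at 36.2, 43.1 and 32.9 CPM and then at 19.2, 33.9 and 35.7 CPM (log2 fold change -0.40, SE 0.24, edgeR adjusted p 0.225). Mbnl3 (chromosome X, 51117269 to 51206532), the member on the X chromosome, was at 4.03, 3.14 and 3.10 CPM and then at 7.82, 3.53 and 4.97 CPM (log2 fold change 0.61, SE 0.32, edgeR adjusted p 0.163). Mbnl2 supplied most of the family's TPM, at a mean of 63.0% with LIF2i and 63.1% after withdrawal.

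**Figure D2:**
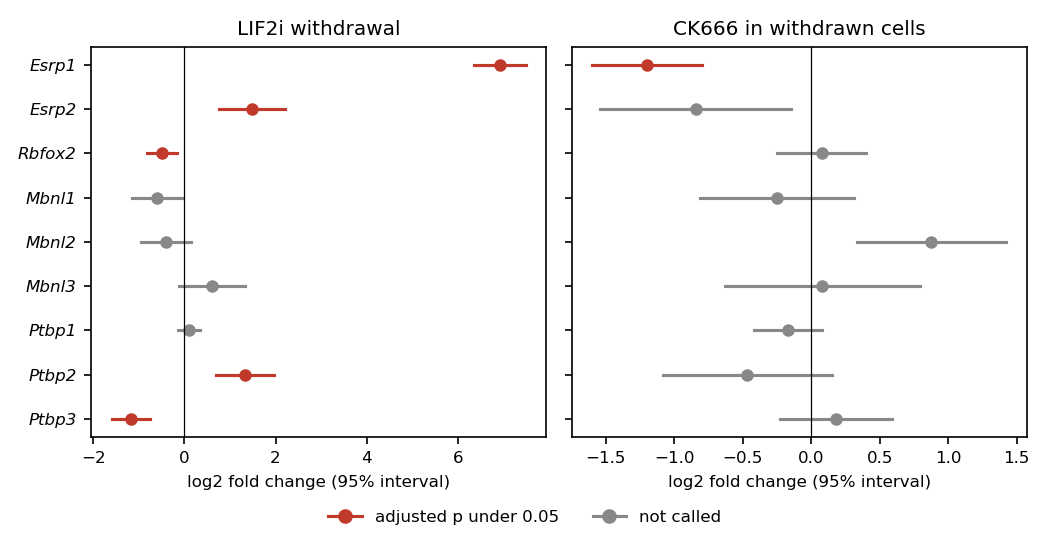
Log2 fold change of each regulator (points) with its 95% interval (lines) after LIF2i withdrawal on the left and with CK666 in withdrawn cells on the right; the axes have different ranges. Red marks an edgeR adjusted p under 0.05: 5 genes for withdrawal, with Esrp1 at 6.92, and for CK666 Esrp1 alone, at -1.20.

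**Figure D3:**
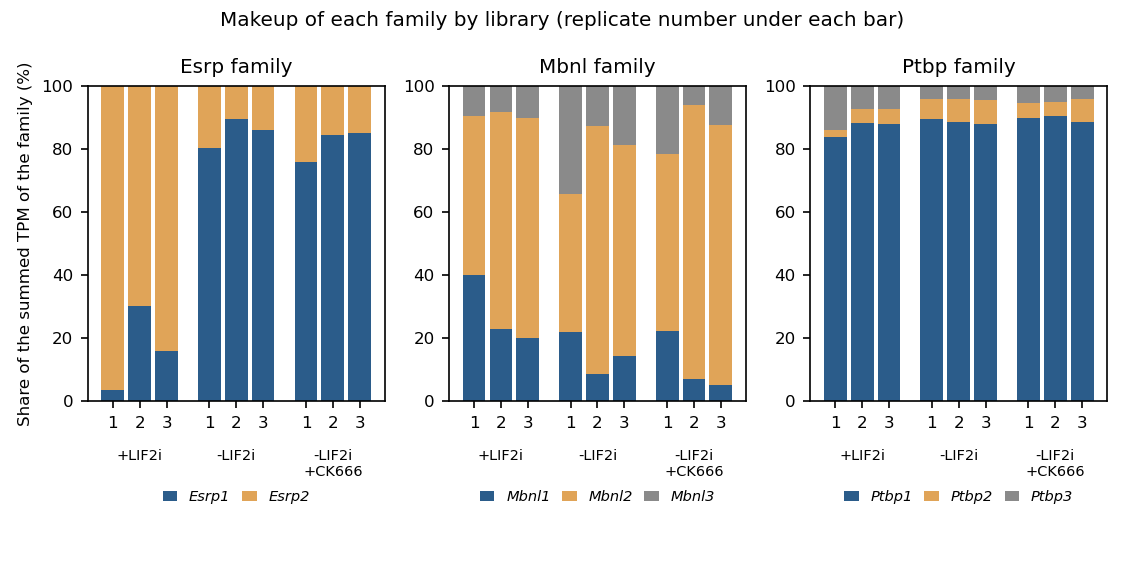
Share of each member in the summed TPM of its family (bars to 100%) in each library, with the replicate number under the bar. Esrp1 goes from at most 30.1% with LIF2i to at least 76.0% in the libraries without it, and Ptbp1 is at 83.9% or more in all 9 libraries.

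The comparison of CK666 with withdrawn control cells measured what the Arp2/3 inhibitor changed during exit. Esrp1 was lower with the drug and was the only regulator called, 1 of 9 beside 2.05% of all genes tested (1.15% raised and 0.894% lowered). Esrp2 and Ptbp2 also lay lower and Mbnl2 higher in 3 of 3 pairs each without passing the test. Without the block 0 genes of any kind were called by edgeR, with 1251 at an unadjusted p under 0.05, so every CK666 call rests on the pairing. The median log2 fold change of the 9 was -0.17, beside 0.02 over all genes.

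With CK666, Esrp1 was at 29.7, 44.5 and 78.7 CPM, beside 69.6, 129 and 144 CPM in control cells. Replicate 3 with the drug was above replicate 1 without it, so the groups overlapped, yet each drug library was below its own pair. Esrp1 fell by 1.20 on the log2 scale (95% interval -1.60 to -0.80, SE 0.18, edgeR adjusted p 0.0260), to 0.435 of the control level. Over 20 alternatives the value was -1.39 to -0.99 and it passed in 12, with an adjusted p of 3.12e-06 to 0.477. The call was lost without the block (0.477) and on log2(TPM + 1) by limma (0.0623). It was also lost without withdrawn control replicate 1 (0.0605), 2 (0.153) or 3 (0.142), without CK666 replicate 2 (0.168), and without all libraries of replicate 2 (0.138) or replicate 3 (0.197). Without the replicate 1 libraries it was -1.21 (edgeR adjusted p 0.00543).

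Esrp1 with CK666 was still far above its level in self-renewing cells, by 5.72 on the log2 scale (SE 0.25, edgeR adjusted p 2.48e-06). This comparison of CK666 with LIF2i cells called 36.9% of all genes tested. It called Esrp1 and Ptbp2 as raised (2 of 9, beside 19.8%) and Mbnl1 and Ptbp3 as lowered (2 of 9, beside 17.1%). Without the block 1 of the 9, Esrp1, was called, beside 20.2% of all genes. Rbfox2 lay just outside the threshold (log2 fold change -0.41, SE 0.14, edgeR adjusted p 0.0512) and passed in 9 of 20 alternatives. Without the replicate 1 libraries Esrp2 (1.15, edgeR adjusted p 0.00560), Rbfox2 (-0.62, 0.00117) and Mbnl2 (0.88, 0.00380) gained a call and Ptbp2 lost it, while Esrp1 (5.59), Mbnl1 (-0.84) and Ptbp3 (-0.80) were called. It shares its libraries with the other comparisons and adds no independent evidence to them.

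Esrp2 was at 8.67, 5.95 and 8.27 CPM with CK666, below all 3 withdrawn control libraries at 11.1 to 15.1 CPM. It was the 1 regulator of 9 whose CK666 and control groups did not overlap, beside 16.5% of all genes tested. The difference was -0.84 on the log2 scale (SE 0.31, edgeR adjusted p 0.172). It passed in 2 of 20 alternatives, without replicate 1 with LIF2i (edgeR adjusted p 0.0197) and without all replicate 1 libraries (0.0358). The ESRP family summed to 25.7 ± 11.2 TPM with CK666, of which Esrp1 supplied 81.8 ± 5.08%, close to its 85.3 ± 4.69% in control cells.

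Mbnl2 was at 29.4, 86.2 and 54.5 CPM with CK666, beside 19.2, 33.9 and 35.7 CPM in control cells. Each drug library was above its pair, and the drug libraries varied nearly 3-fold among themselves. The difference was 0.87 on the log2 scale (SE 0.24, edgeR adjusted p 0.0918). It passed in 3 of 20 alternatives, by DESeq2 (adjusted p 0.0199), without replicate 1 with LIF2i (edgeR adjusted p 0.00960) and without all replicate 1 libraries, at 0.96 (edgeR adjusted p 0.0110). Mbnl2 supplied 56.0%, 86.9% and 82.3% of the MBNL family's TPM with the drug and 43.9%, 78.4% and 67.0% without it.

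Mbnl1 was at 6.73, 6.28 and 3.69 CPM with CK666, overlapping the control libraries (log2 fold change -0.25). Against LIF2i cells it was lower by 0.86 on the log2 scale with a call (SE 0.25, edgeR adjusted p 0.0231) that held in 13 of 20 alternatives. The call was lost without the block (edgeR adjusted p 0.135) and in 6 fits that left out libraries: replicate 2 or 3 with LIF2i, replicate 1 or 3 with CK666, or all of replicate 2 or of replicate 3, with an adjusted p of 0.0599 to 0.199 by edgeR. Mbnl3 was at 9.90, 4.70 and 3.30 CPM, and its log2 fold change for the drug, 0.08, changed sign in 6 alternatives.

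Ptbp2 was at 52.8, 32.7 and 62.9 CPM with CK666, below its pair in each replicate. Replicate 2 fell to the level of the libraries with LIF2i, so CK666 cells overlapped both other groups. The difference from control cells was -0.47 on the log2 scale (SE 0.27, edgeR adjusted p 0.389). Against LIF2i cells it was 0.86 (SE 0.28, edgeR adjusted p 0.0397), a call that held in 9 of 20 alternatives. It was lost without the block (edgeR adjusted p 0.0880), with no filter, with the length offset (0.42) and on TPM (0.42). It was also lost without replicate 1 or 3 with LIF2i, control replicate 2, CK666 replicate 1 or 3, all replicate 1 libraries (0.49, edgeR adjusted p 0.0684) or all replicate 3 libraries, at 0.49 to 0.96 on the log2 scale.

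Ptbp3 was at 146, 93.6 and 81.3 CPM with CK666 (log2 fold change 0.18, SE 0.18, edgeR adjusted p 0.642 for the drug). Against LIF2i cells it was lower by 1.00 on the log2 scale (SE 0.18, edgeR adjusted p 0.00259), and that call held in 19 of 20 alternatives, all but the fit without the block (edgeR adjusted p 0.0649). Ptbp1 was at 899, 599 and 644 CPM with CK666, below its pair in 3 of 3 (log2 fold change -0.17, SE 0.11, edgeR adjusted p 0.434). Rbfox2 was at 160, 106 and 104 CPM (log2 fold change 0.08, SE 0.14, edgeR adjusted p 0.819). For each of these 3 genes the drug and control libraries overlapped.

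Isoform use was then read from the deposited transcript estimates. A transcript's share is its part of the gene's TPM, and an exon's inclusion is the part of the TPM of the transcripts spanning it that holds it. Both are inferred from annotated transcripts and not from junction reads. Of the regulators' transcripts 34 could be tested and of their exons 19. None of them was from Esrp1, which had only 8 counts in 1 library with LIF2i and at most 0.451 TPM in that group. No exon of Esrp2 could be tested. By limma with the block, 0 of the 34 transcripts and 0 of the 19 exons were called for withdrawal or for CK666, beside 0.038% of transcripts and 0% of exons over all genes for withdrawal and 0% of both for CK666. Against LIF2i cells 0 were called too, beside 0.00345% of transcripts and 0% of exons. At an unadjusted p under 0.05 there were 2 transcripts and 0 exons for withdrawal, 0 transcripts and 1 exon for CK666, and 5 transcripts and 5 exons against LIF2i cells. Over all genes these counts were 2659, 1425 and 2309 of 28970 transcripts and 646, 434 and 576 of 7034 exons, in the same order of comparisons. No member isoform was called in any of the 18 alternatives run for transcripts or the 17 run for exons. A p that misses the threshold does not show that isoform use was alike.

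The frame-shifting exon of Ptbp2, printed above, was included at 85.2%, 70.9% and 72.7% with LIF2i and at 80.4%, 73.7% and 87.2% after withdrawal. With CK666 it was at 97.9%, 85.9% and 94.2%, above the pair in 3 of 3, and all of these were above the libraries with LIF2i. The log2 odds of inclusion differed by 1.74 between drug and control (SE 0.54, unadjusted p 0.0176, limma adjusted p 0.779 by the test across all exons), so the difference was not called. Without the replicate 1 libraries it was 1.10 (limma adjusted p 0.623). It is the 1 exon with an unadjusted p under 0.05 for CK666. For withdrawal the log2 odds differed by 0.34 (SE 0.54, limma adjusted p 0.871), so the rise of Ptbp2 came with no called shift of this exon. The matching exon of Ptbp1 was included at 94.1% to 100% in the 9 libraries, above the range tested.

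The in-frame exon of Ptbp1 was not called in any comparison. Inclusion was 75.1%, 63.4% and 67.8% with LIF2i, 66.8%, 68.2% and 63.9% after withdrawal, and 68.7%, 65.5% and 64.5% with CK666. The 3 groups overlapped, and the group difference in log2 odds was largest, at -0.17 (SE 0.19), after withdrawal and against LIF2i cells; without the replicate 1 libraries these were 0.03 and -0.04. Ptbp1-216, the long form with this exon, supplied a mean of 50.9% of the gene's TPM, Ptbp1-202 21.9% and Ptbp1-203 15.4%.

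The matching exons of Mbnl1 and Mbnl2 varied between libraries of a group. The Mbnl1 exon was included at 56.9%, 74.3% and 88.1% with LIF2i, at 69.3%, 39.3% and 50.6% after withdrawal and at 62.5%, 62.5% and 49.7% with CK666. The Mbnl2 exon was near full inclusion, at 100%, 85.7% and 94.4%, then 89.3%, 100% and 100%, then 90.4%, 84.5% and 100%. For Mbnl1 the log2 odds differed by -1.37 after withdrawal (SE 1.07, limma adjusted p 0.716), a difference within the spread between replicates. Without the replicate 1 libraries the difference after withdrawal was -2.43 for Mbnl1 and 3.49 for Mbnl2, and neither was called.

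Rbfox2 was spread over Rbfox2-204 (a mean of 44.7% of its TPM), Rbfox2-209 (25.4%) and Rbfox2-214 (20.1%). Its exon of 51 bases (chromosome 15, 77231387 to 77231437) was included at 75.7%, 75.4% and 77.3% with LIF2i, 71.2%, 70.2% and 76.7% after withdrawal, and 67.9%, 60.3% and 71.8% with CK666. The drug libraries were below their pairs in 3 of 3 and below all libraries with LIF2i, but no difference was called (limma adjusted p 0.929 for the drug and 0.613 against LIF2i cells). Ptbp3 was mostly Ptbp3-201 (63.4%), and its exon of 34 bases (chromosome 4, 59546149 to 59546182) was at 9.57%, 16.7% and 7.66%, then 13.7%, 17.3% and 25.6%, then 20.5%, 20.7% and 32.7%. This exon too was highest with CK666 in each replicate number and was not called (limma adjusted p 0.986 for the drug). Esrp2 was mostly Esrp2-201, at 100%, 100% and 56.8% with LIF2i, 70.9%, 67.1% and 57.4% after withdrawal and 82.3%, 61.4% and 56.1% with CK666. This transcript and Esrp2-209 were the 2 with an unadjusted p under 0.05 for withdrawal (limma adjusted p 0.515 and 0.501). Esrp2-209, a transcript with a retained intron, was listed at 0 with LIF2i and rested on 3.19 to 4.66 estimated counts per withdrawn library.

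The Esrp1 made after withdrawal was mainly Esrp1-203 and Esrp1-204. In the 6 libraries without LIF2i, Esrp1-203 supplied 40.3% to 50.4% and Esrp1-204 supplied 31.5% to 45.7% of the gene's TPM. Esrp1-206 was at 23.5%, 18.0% and 9.97% in control cells and at 8.63%, 0% and 8.21% with CK666. These shares were not tested, and Esrp1-206 was lower with the drug in 3 of 3 pairs.

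**Figure D4:**
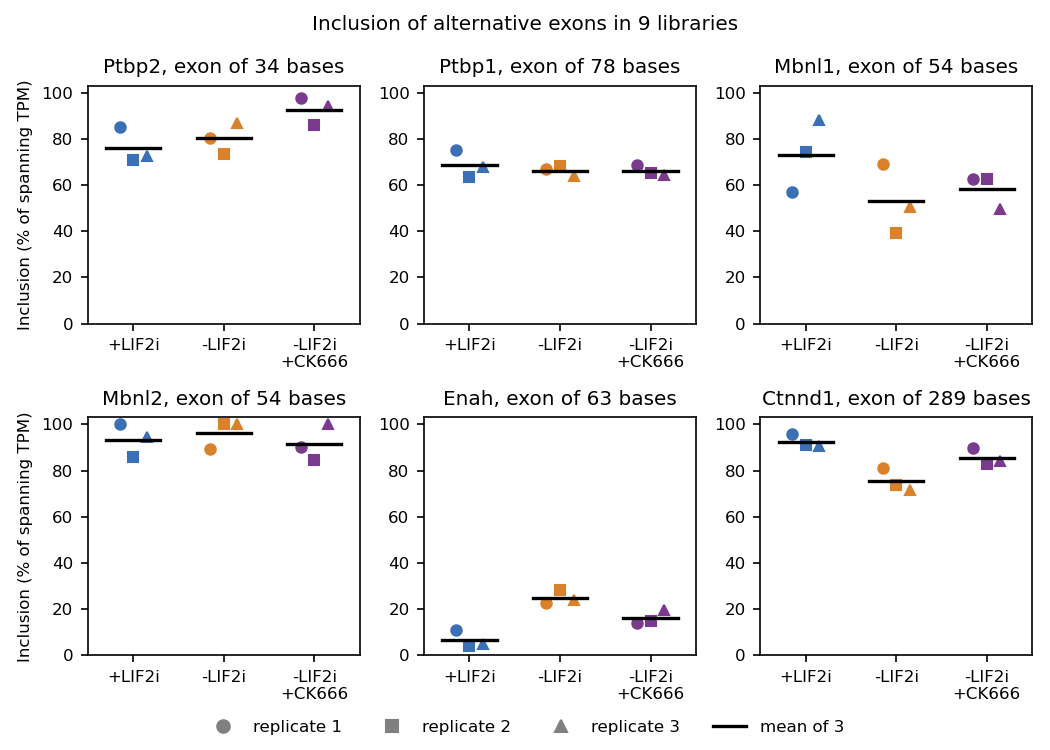
Inclusion of 6 alternative exons, in % of the TPM of spanning transcripts (axis from 0), in the 9 libraries by group, with shapes for the replicate number and bars for means of 3. The Enah exon sits at 3.92% to 10.9% with LIF2i, 22.7% to 28.1% after withdrawal and 13.9% to 19.4% with CK666, the Ctnnd1 exon runs the other way, and the Ptbp1 exon stays between 63.4% and 75.1%.

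Messages with exons known to respond to these regulators were read from a list of 35 genes. Of 68 exons in 26 of these genes, 0 were called for withdrawal or CK666 by limma. At an unadjusted p under 0.05, and leaving out the regulators' own exons, there were 16 of 51 for withdrawal and 4 of 51 for CK666, beside 646 and 434 of 7034 exons over all genes. Of transcripts there were 23 of 110 and 16 of 110, beside 2659 and 1425 of 28970. Exons of 1 gene share transcripts, and transcripts of 1 gene share a total. Of 136 transcripts in 32 genes, 1 was called for withdrawal (0.735%, beside 0.038% of all transcripts, 0.0207% in the raised direction) and 0 for CK666. The called transcript was Tpm1-213 of tropomyosin 1, an actin-filament protein whose exons respond to PTBP and MBNL proteins. It was listed at 0 in all 3 libraries with LIF2i, supplied 31.0%, 30.4% and 43.6% of the gene's TPM after withdrawal (limma adjusted p 0.0236) and 11.0%, 9.71% and 26.4% with CK666. The drug libraries were below all control libraries, without a call (limma adjusted p 0.922). The withdrawal call was lost in each of the 12 fits that left out libraries, where 0 transcripts of any gene were called. A Tpm1 transcript was called in each of the 6 other alternatives, and a Tpm1 exon was called for withdrawal in 2 exon alternatives, without the block and with an offset of 0.001.

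A pair of classical ESRP targets was singled out after their values were seen. The epithelial exon of Enah, printed above, was included at 10.9%, 3.92% and 4.98% with LIF2i, at 22.7%, 28.1% and 23.8% after withdrawal and at 13.9%, 14.9% and 19.4% with CK666. The 3 groups did not overlap, with CK666 in between, as for Esrp1 itself in mean level. Only 1 transcript held this exon, and 8 skipped it. The other tested exons of Enah also had CK666 in between in mean inclusion, so this order was not particular to the epithelial exon. That of 843 bases had means of 95.2% with LIF2i, 62.1% after withdrawal and 85.1% with CK666. That of 303 bases had means of 95.8%, 77.2% and 91.5%. For the epithelial exon the log2 odds differed by 2.18 after withdrawal (SE 0.40, unadjusted p 0.00153, limma adjusted p 0.240). With CK666 they differed by -0.77 (SE 0.40, limma adjusted p 0.875). Neither difference was called in any of 17 exon alternatives. Among the transcript alternatives, Enah was called for withdrawal by edgeR's diffSpliceDGE. Without the replicate 1 libraries the differences were 2.67 and -0.73.

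Ctnnd1 encodes p120 catenin, which ESRP proteins shift towards short epithelial forms by skipping exons near its start. Its exon of 289 bases (chromosome 2, 84624270 to 84624558) was included at 96.0%, 90.9% and 90.6% with LIF2i, at 81.3%, 73.5% and 71.8% after withdrawal and at 89.8%, 82.7% and 84.0% with CK666. For this exon too the groups did not overlap and CK666 lay in between. The log2 odds differed by -1.93 after withdrawal (SE 0.23, unadjusted p 0.000108, limma adjusted p 0.0948) and by 0.91 with CK666 (SE 0.23, unadjusted p 0.00641, limma adjusted p 0.730). Neither passed in any of 17 exon alternatives, where the smallest limma adjusted p for withdrawal was 0.0526. A Ctnnd1 transcript was called for withdrawal in 2 transcript alternatives, with an offset of 0.05 and on shares of estimated counts. Without the replicate 1 libraries the differences of the exon were -1.79 and 0.88. The other tested exons of Ctnnd1 did not have this order. That of 63 bases had means of 59.6% with LIF2i, 68.5% after withdrawal and 57.2% with CK666, and that of 18 bases had means of 65.1%, 48.2% and 45.7%. Of further listed genes with ESRP-type exons, Scrib, Nf2, Magi1 and Arhgef11 had 3, 3, 5 and 2 exons tested, of which limma called 0. The Arhgef11 exon of 30 bases had means of 25.6%, 21.1% and 25.2%, the Scrib exon of 84 bases 25.5%, 15.2% and 21.0%, and the Nf2 exon of 45 bases 32.9%, 35.3% and 25.0%. The Nf2 exon of 123 bases had means of 94.7%, 91.1% and 94.7%, the Magi1 exon of 204 bases 47.6%, 68.2% and 49.95% and that of 84 bases 58.7%, 74.0% and 59.8%, each with withdrawn control cells apart from both other groups. The exon of 93 bases of Slk, from the same list, was at 53.1%, 15.9% and 19.8%, then 29.8%, 33.4% and 28.1%, then 31.0%, 24.7% and 22.7%, with overlapping groups and its highest value in replicate 1 with LIF2i.

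Markers of epithelial and mesenchymal cells were read beside Esrp1 and Esrp2. All 8 epithelial markers rose after withdrawal, Esrp1 among them, for example the keratin Krt18 by 4.49, the junction gene Cldn6 by 5.14 and the transcription factor Grhl2 by 4.74 on the log2 scale, while Cdh1 rose by 0.40. Their summed level was 305 to 547 TPM with LIF2i, 1149 to 1514 TPM after withdrawal and 853 to 1306 TPM with CK666, and 0 of the 8 was at 0 in a whole group. Of the 8 mesenchymal markers 3 fell after withdrawal, 1, Cdh2, rose and 4 were not called. With CK666 against LIF2i cells 3 were raised and 3 lowered (median log2 fold change 0.61). Their summed level was 565 to 794, then 91.5 to 149, then 169 to 247 TPM, again with 0 markers at 0 in a whole group. A sum follows its most abundant genes, and with CK666 it lay below LIF2i cells although the median log2 fold change was 0.61. The matrix gene Fn1 was at 2352 to 2714, then 268 to 286, then 534 to 640 CPM. The part of these markers in the change of the regulators was not tested.

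Zeb1, a repressor of epithelial genes that is known to act on Esrp1, had the opposite order to Esrp1. It was at 60.6, 21.3 and 29.9 CPM with LIF2i, at 6.56, 1.71 and 3.45 CPM after withdrawal and at 23.0, 11.8 and 10.9 CPM with CK666. Withdrawn control cells were below both other groups in every library. Zeb1 fell by 3.28 after withdrawal (SE 0.23, edgeR adjusted p 1.33e-05) and rose by 2.05 with CK666 (SE 0.23, edgeR adjusted p 0.0112; 0.354 without the block). For CK666, 7 of 8 epithelial markers were not called, the exception being Esrp1 itself, and 6 of 8 mesenchymal ones were not, the exceptions being Zeb1 and Fn1, which rose by 1.04 (SE 0.12, edgeR adjusted p 0.0112). Epcam was at 206 to 375 CPM with CK666 and 217 to 402 CPM without it (log2 fold change -0.03), and Grhl2 at 22.7 to 36.8 and 37.2 to 40.8 CPM (-0.42).

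Among markers of other cells, fibroblast genes had 4 of 7 tested raised after withdrawal, with a summed level of 6.55 to 13.5 TPM with LIF2i, 25.5 to 35.1 after withdrawal and 16.7 to 26.1 TPM with CK666, and Lum was at 0 in all libraries with LIF2i or CK666. Neural markers summed to 46.5 to 203, 51.3 to 113 and 34.8 to 86.5 TPM, beside the rise of Ptbp2. Of 5 neural markers tested, 2 rose and 2 fell after withdrawal, and 1, Nes, fell with CK666 (log2 fold change -1.24). Dcx was at 0 in all libraries with LIF2i, and Neurog2 in all libraries with LIF2i or CK666. Primitive endoderm markers had 1 gene raised and 1 lowered of 7. What these cells contribute to the regulators' levels was not tested.

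The wider set of splicing regulators showed how common such changes were. Of 33 other tissue-regulated splicing factors tested, 11 rose and 6 fell after withdrawal (median log2 fold change 0.20, beside 0.01 over all genes), where 21.1% of all genes rose and 19.7% fell. Leaving out libraries gave 3 to 13 raised and 4 to 6 lowered. Raver2, a partner of PTBP1, rose by 1.54 (SE 0.20, edgeR adjusted p 0.000320) and Celf2 by 0.97 (SE 0.24, edgeR adjusted p 0.0103). Nova2, a regulator of neural exons, fell by 2.11 (SE 0.25, edgeR adjusted p 0.000219) and Qk, an RNA-binding protein of mesenchymal splicing, by 1.14 (SE 0.14, edgeR adjusted p 0.000214). For CK666 edgeR called 0 of the 33 (median -0.07), with 10 at an unadjusted p under 0.05, and DESeq2 called 1 raised and 3 lowered.

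Of 13 SR proteins, which mostly promote exon inclusion, 2 rose after withdrawal (median 0.27), beside 21.1% of all genes: Srsf3 by 0.41 (SE 0.15, edgeR adjusted p 0.0494) and the weakly expressed Srsf12. Leaving out libraries gave 0 to 3 raised. With CK666 2 of the 13 fell, 15.4% beside 0.894% of all genes. Srsf3 was at 623, 558 and 557 CPM in control cells and at 351, 260 and 300 CPM with CK666, and the groups did not overlap (log2 fold change -0.94, SE 0.15, edgeR adjusted p 0.0261; 0.303 without the block). Srsf2 was at 589, 428 and 455 CPM and at 384, 175 and 185 CPM with the drug (-1.05, SE 0.19, edgeR adjusted p 0.0333; 0.403 without the block). Without the block 0 SR genes were called in either comparison. Leaving out libraries gave 0 to 8 lowered with CK666, and DESeq2 gave 5.

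Of 24 hnRNP proteins, which often act as repressors of exons, 7 rose after withdrawal and 0 fell (median 0.29), where 21.1% of all genes rose and 19.7% fell. Among them Pcbp4 rose by 1.38 (SE 0.18, edgeR adjusted p 0.000316) and Hnrnph1 by 0.91 (SE 0.12, edgeR adjusted p 0.000424). For CK666 edgeR called 0 of the 24 (median -0.18), with 1 raised and 7 lowered at an unadjusted p under 0.05 and 3 lowered by DESeq2, while leaving out libraries gave 0 to 10 lowered. After withdrawal 2 of the 24 were called without the block, and leaving out libraries gave 2 to 9 raised. Of the 35 genes with exons known to respond to these regulators, 12 rose and 6 fell in level after withdrawal, and Esrp1 was the only one called for CK666. The list holds 7 of the regulators themselves, and of the other 28 genes 10 rose and 4 fell, and edgeR called 0 for CK666.

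**Figure D5:**
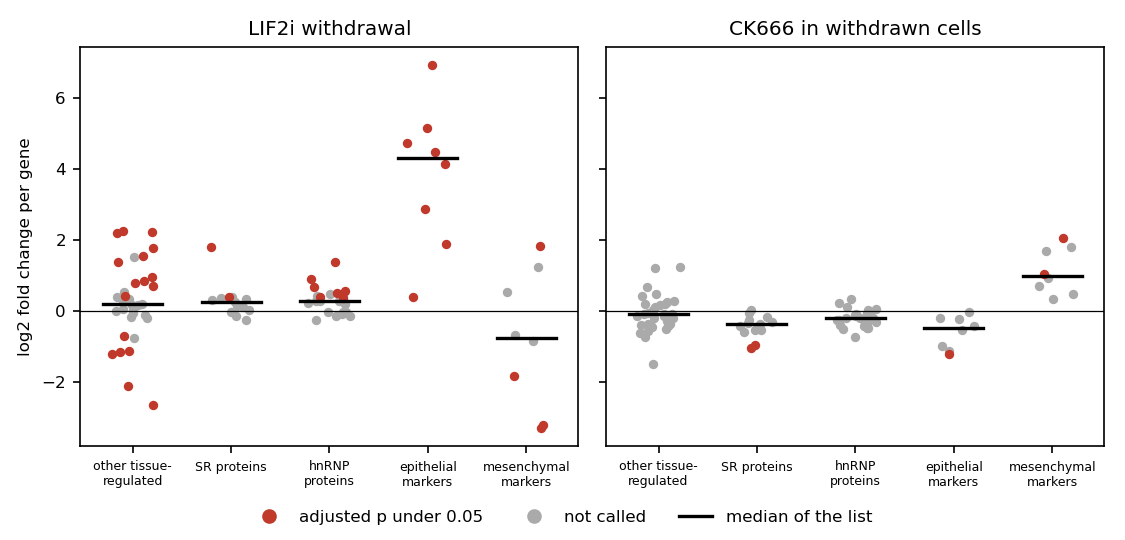
Log2 fold change per gene (points) in 3 lists of splicing factors and 2 lists of markers, after withdrawal on the left and with CK666 on the right, with the bar at the median of the list and red for an edgeR adjusted p under 0.05. Epithelial markers have a median of 4.32 after withdrawal and -0.47 with CK666, mesenchymal ones -0.76 and 0.99, and the medians of the splicing factor lists lie within 0.35 of 0 in both.

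By pattern over the 9 libraries, after removing the mean of each replicate number, the genes most like Esrp1 were Agap3 (Pearson r 0.999), Jph4 (0.998) and Dlg4 (0.998), among 9497 protein-coding genes. The genes most like Ptbp2 were Rnf145 (0.991), Cdca7l (0.988) and Camkv (0.986). Those most like Rbfox2 were Trappc2 (0.986), Mrps16 (0.986) and Atp5c1 (0.985), and those most like Mbnl3 were Wasl (0.993), Srm (0.978) and Etv4 (0.974). These values were picked as the highest among many genes and describe likeness only.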

How the data were processed

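For 9 libraries the authors deposited 1 table each, with estimated counts, TPM and effective length for 119414 transcripts. The submitters' processing notes name FastQC, cutadapt 1.8.1, kallisto and sleuth, with the builds GRCh38 and mm10 and no role for either. The kallisto version and its transcript release are not given in the sources used here. The estimated counts the authors deposited need not be whole, since reads are divided between transcripts; TPM values deposited by the authors are corrected for length and scaled within a library.

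Transcripts were assigned to genes by Ensembl ID with GENCODE M21 (GRCm38), which matched 116640 (97.7%). The other 2774 held 0.895% to 1.08% of a library's counts and were left out. Counts were summed per gene, rounded, and tested in R 4.3.3 with edgeR 4.0.16 (robust quasi-likelihood, TMM scaling, filterByExpr), with Benjamini-Hochberg adjustment over 14648 genes and a call at adjusted p under 0.05. All 9 libraries shared 1 fit with the replicate number as a block and 4 residual degrees of freedom. The design text of the study names the pairing, and same-numbered libraries deviated together (r 0.303 to 0.654, median 0.407). Differently numbered libraries had a median r of -0.367, below 0 in each pair with a replicate 1 library. Pairs of a replicate 2 with a replicate 3 library had r of 0.214 to 0.286, not far below same-numbered pairs. Deviations from a group mean cancel out within the group, so the negative median is partly fixed and is no separate support for the block. At these depths 3 counts are 0.133 to 0.178 CPM, counting error only. Nothing in the labels beyond the word biological says how far the cultures were separate.

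Transcript shares (28970) and exon inclusion (7034 exons) were tested with limma 3.58.1 on log2 odds with an offset of 0.01, for means of 5% to 95%, at least 10 counts per gene and library for shares and at least 1 TPM spanning an exon. DESeq2 1.42.0 served as an alternative. The statistics were tested on data simulated for withdrawal only, without error in assigning reads to transcripts. This does not show how well CK666 differences in isoform use would be found. All 9 regulators are named. From each list of splicing factors come the 2 raised and 2 lowered genes changed most by withdrawal above a mean log2 CPM of 3. Those called for CK666 are named too. Markers and some further genes are named outside this rule. The members, lists and rules were chosen with earlier results of these data known. The log2 fold changes of low genes depend on the prior count.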

Additional observations from a re-analysis of the deposited data

How the results depend on the processing

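The gene counts for withdrawal, CK666 and CK666 against LIF2i cells were 5967, 300 and 5408 with the replicate block and 3509, 0 and 2966 without it. For CK666 the count was 1136 by DESeq2, 553 by voom, 565 with no filter, 149 with a length offset and 42 by limma on log2(TPM + 1). Leaving out 1 library gave 4209 to 6269, 2 to 1657 and 3544 to 5785. Leaving out a replicate number gave, for 1, 2 and 3 in turn, 6588, 3746 and 3099 for withdrawal, 1811, 8 and 0 for CK666, and 6129, 3336 and 2413 against LIF2i cells. Withdrawal gave 11 transcript shares, but 42 without the block, 27 and 32 with offsets of 0.001 and 0.05, 54 on shares of counts, 2 for means of 1% to 99%, 44 by diffSpliceDGE and 0 in every fit that left out libraries. CK666 gave 0 by limma (1425 at an unadjusted p under 0.05) and 2 by diffSpliceDGE; against LIF2i cells the count of 1 became 18 without the block, 11 with offset 0.001, 21 on counts, 29 by diffSpliceDGE and 0 with libraries left out. Exons gave 0 for withdrawal (646 at an unadjusted p under 0.05), 6 without the block, 6 with offset 0.001 and 0 to 1 with libraries left out. Against LIF2i cells they gave 0, then 2 without the block and 4 with offset 0.001. They gave 2 from protein-coding and nonsense-mediated-decay transcripts and 2 at a spanning TPM of 5. The cause was not tested. On shares of counts, which favour long messages, Mbnl3 made up 6.77% of its family with LIF2i, Ptbp1 75.6%, 83.4% and 82.1% and Ptbp3 21.4%, 9.57% and 12.2% in the 3 groups.

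Of the regulators' 540 alternative log2 fold changes 475 kept direction and side of the threshold, 36 lost and 20 gained a call and 9 changed sign, none of them a called change. For CK666, Mbnl3 (0.08) turned to -0.25 with the length offset and -0.21 on TPM, and to between -0.19 and -0.09 in 4 fits with libraries left out (-0.10, -0.11; up to 0.35 without 1 library and 0.37 without a replicate number). Rbfox2 (0.08) turned to -0.09 and -0.01 (up to 0.16), and Ptbp3 (0.18) to -0.06 (up to 0.33). Alternatives of exon inclusion were run one by one for 6 exons, in Ptbp2, Ptbp1, Mbnl1, Mbnl2, Enah and Ctnnd1, and 16 of their 300 log2 odds changed sign, all with libraries left out. For withdrawal the Ptbp2 exon turned to -0.05 and -0.13 (up to 0.86), that of Ptbp1 to 0.03 and that of Mbnl2 to -0.12 and -0.41 (up to 3.10 without 1 library and 3.49 without a replicate number). For CK666 that of Ptbp1 turned to 0.15, 0.03 and 0.08 (down to -0.14), that of Mbnl1 to -0.16, -0.06 and -0.24 (up to 0.99) and that of Mbnl2 to 0.12 (down to -2.96); against LIF2i cells the Mbnl2 exon turned to 1.73, 0.15, 0.40 and 1.35 (down to -1.50 without 1 library and -1.84 without a replicate number). Depth limited Esrp1 isoforms, with 8 counts in 1 library with LIF2i.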
